A study of Homo sapiens with 3 samples.

Results

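The genes described here, 10 in number, belong to the unfolded protein response and the ATF4 stress response and were followed in the messenger RNA of a human hepatocellular carcinoma (HCC) cell line and its subclones. The 10 genes are HSPA5, HSP90B1, HERPUD1, XBP1, ATF4, DDIT3, ATF3, TRIB3, ASNS and CHAC1, taken by symbol from the 16149 genes listed in at least 1 library, and all 10 were listed in all 3 libraries. The study asked which genes go with the organ that HCC cells metastasize to. RNA came from 3 cultures in DMEM medium, with 1 library each, and all are labelled as HCCLM3, an HCC line kept as a metastasis model in nude mice. The parent is labelled as having a low ability to metastasize, subclone1 as more metastatic with lung specificity, and subclone2 as metastatic to both lung and celiac lymph node. By the study's methods the parental line carries a red fluorescent protein and counts as highly metastatic, and each subclone grew from a single cell taken from a metastasis in a mouse. Each subclone is therefore 1 clone, and the name of the clone sequenced was not given in the sources used here. No stressor is named for any of the 3 cultures, so the values are read as levels in ordinary culture. Cell density and the age of the medium at harvest are not stated in the study's methods, and their part in the values was not tested.

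Secreted and membrane proteins fold in the endoplasmic reticulum (ER), and when unfolded protein builds up there the sensors ATF6, IRE1 (gene ERN1) and PERK (gene EIF2AK3) start the unfolded protein response. ATF6 and the spliced form of XBP1 turn on chaperones and the degradation machinery through ER stress response elements in promoters, while PERK phosphorylates the translation factor eIF2alpha, which favours translation of ATF4. Other kinases that sense amino acid shortage, haem shortage or viral RNA reach ATF4 the same way, so ATF4 targets also respond to nutrient supply. Liver cells export large amounts of plasma protein and rely on this folding machinery. Much of this control acts on splicing, cleavage and translation, which the gene-level values given here do not record.

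The promoter letters of both arms are shown for the members that carry them, since these are the elements through which the arms are known to act. Windows from 250 bases before to 50 bases after each annotated start were taken from RefSeq (GRCh38.p14), 35116 windows in all, with several windows for some genes, and all 10 members had at least 1. The motifs searched on both strands were ERSE (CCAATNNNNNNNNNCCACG), ERSE-II (ATTGGNCCACG), UPRE (TGACGTGG) and the composite element bound by ATF4 with C/EBP proteins, CARE (TGATGNAA). ERSE and ERSE-II share the letters CCACG, whose opposite strand, CGTGG, closes UPRE, so these matches may overlap, whereas CARE shares no such block with them. ERSE was present in 0.0769% of the windows, ERSE-II in 0.0541%, UPRE in 0.729% and CARE in 3.62%.

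ERSE was found in HSPA5, HSP90B1 and XBP1, and HSP90B1 held it at 2 places. Below, each run is written 5′ to 3′ on the strand that carries the motif as spelled above, with the motif in capitals.
HSPA5, chr9:125241386-125241414, minus strand: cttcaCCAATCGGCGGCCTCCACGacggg
HSP90B1, chr12:103930211-103930239, plus strand: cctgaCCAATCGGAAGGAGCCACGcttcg
HSP90B1, chr12:103930316-103930344, minus strand: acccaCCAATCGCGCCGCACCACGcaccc
XBP1, chr22:28800598-28800626, minus strand: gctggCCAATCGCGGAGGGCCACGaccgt

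HERPUD1 was the only member that held ERSE-II, and it held CARE as well. CARE was also present in ASNS, CHAC1 and ATF3, and its part in their levels was not tested. XBP1, ASNS and ATF3 had 2 windows each, and the match lay in 1 of them.
HERPUD1 (ERSE-II), chr16:56932016-56932044, plus strand: cggacgccgATTGGGCCACGttgggagag
HERPUD1 (CARE), chr16:56931955-56931984, minus strand: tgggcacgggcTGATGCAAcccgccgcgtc
ASNS (CARE), chr7:97872458-97872487, minus strand: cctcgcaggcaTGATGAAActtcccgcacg
CHAC1 (CARE), chr15:40953251-40953280, minus strand: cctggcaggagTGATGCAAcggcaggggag
ATF3 (CARE), chr1:212565205-212565234, plus strand: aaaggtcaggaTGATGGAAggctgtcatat

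No match to these letters was found in the windows of ATF4, DDIT3 or TRIB3, and UPRE was found in no member. Letters outside the windows were not searched, so matches there are not excluded. A match is a run of letters only, and binding was not measured. Counted from the start, where the base before it is -1, the HSPA5 match lay at -66 to -48, the XBP1 match at -52 to -34 and the ASNS match at -68 to -61.

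**Figure D1:**
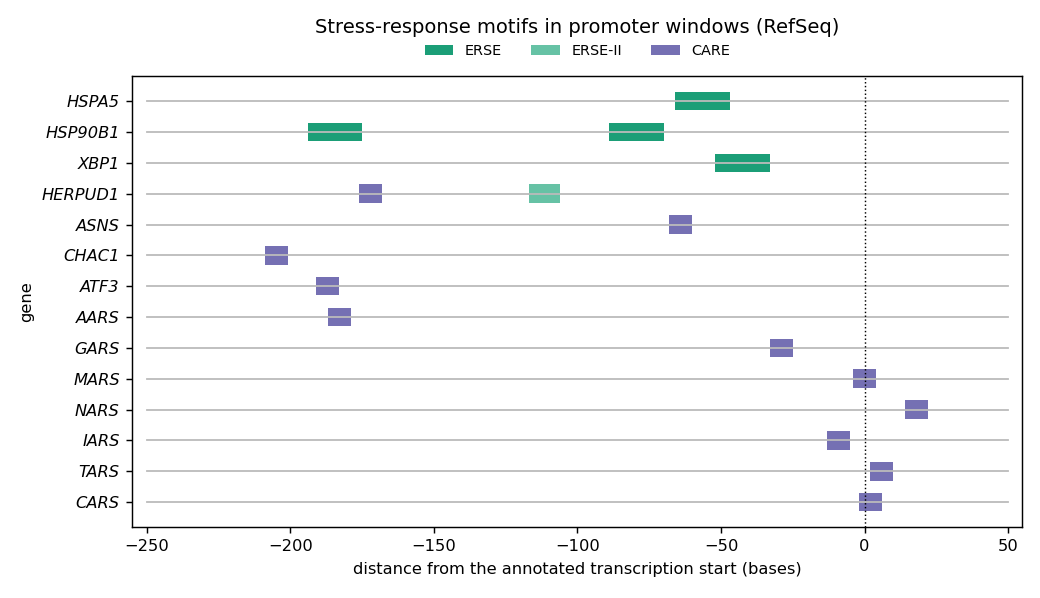
Positions of the motif matches in the promoter windows (x axis: distance from the annotated start in bases; 1 line per gene). Green boxes are ERSE or ERSE-II, purple boxes are CARE; the 7 members with a match are on top, followed by 7 aminoacyl-tRNA synthetase genes with CARE, and the members' matches all lie before the start.

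Levels were given by the authors as RPKM, the reads of a gene divided by its length and scaled to the reads of its library. Read totals recovered from the steps of the RPKM were 4488825 for the parent, 4609696 for subclone1 and 4725150 for subclone2. Each level below carries its exact Poisson interval, and each fold an exact binomial (Clopper-Pearson) interval, both at 95% and both covering counting error only. With 1 library per line there is no spread between cultures, so no test was made and an interval that leaves out 1 says only that these libraries differ by more than read counting allows. Both comparisons over the parent use the same parent library, and the comparison of subclone2 with subclone1 follows from the other two.

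The keratins of epithelial cells, KRT8 and KRT18, were abundant, whereas EPCAM lay between 0.125 and 0.367 RPKM. CDH1, the epithelial cadherin, was at 2.08 RPKM in the parent, 8.97 in subclone1 and 12.3 in subclone2, with ratios to the parent of 4.31 (3.10 to 6.09) and 5.91 (4.30 to 8.29), and its part in the results was not tested. Hepatocyte identity was partial: HNF4A was at 11.7 to 16.0 RPKM, ALB at 2.46 in the parent, 49.5 in subclone1 and 68.8 in subclone2, and TTR had no value above 0 in the parent or subclone1. The summed level of the 9 hepatocyte markers was 24.5 RPKM in the parent, 113 in subclone1 and 106 in subclone2, with 5 of 9 at 1 RPKM or more in every library, and its part in the results was not tested. Of 10 fibroblast markers, 3 to 4 per library were at 0, among them PDGFRA, PDGFRB and FAP, with sums of 28.7 to 37.8 RPKM. Those at a mean of 1 RPKM or more differed in opposite directions. Ratios of subclone1 and subclone2 to the parent were 2.37 and 2.08 for LUM and 5.72 and 3.56 for DCN. For COL6A3 they were 0.514 and 0.343, and for COL3A1 0.5003 and 0.105. The counting intervals of these ratios all left out 1, and the part of these markers in the results was not tested. The 8 leukocyte markers summed to 77.2 to 115 RPKM, nearly all of it CD68, with PTPRC at no more than 0.0836 RPKM, and the 5 endothelial markers to 5.11 to 11.9 RPKM.

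The ER chaperones were the most abundant members and differed little between libraries. HSP90B1 (GRP94), an HSP90-family chaperone of the ER lumen, was at 610 RPKM in the parent (597 to 624), 659 in subclone1 (645 to 673) and 653 in subclone2 (639 to 667). It ranked 84th, 80th and 77th among the genes of these libraries. Both subclones were slightly above the parent, by 1.08-fold for subclone1 (1.05 to 1.11) and 1.07-fold for subclone2 (1.04 to 1.104), and the first of these turned slightly below 1 when RPKM was divided by ACTB (log2 ratio of -0.02). HSPA5 (BiP or GRP78), the HSP70-family chaperone that also holds the sensors inactive, went the other way. Its level was 305 RPKM in the parent (297 to 313), 271 in subclone1 (263 to 278) and 268 in subclone2 (261 to 276). The ratios to the parent were 0.888 (0.854 to 0.923) and 0.881 (0.848 to 0.916), so both subclones were 11 to 12% lower. Between the subclones the ratio was 0.992 for HSPA5 (0.954 to 1.03) and 0.991 for HSP90B1 (0.962 to 1.02), and both turned above 1 when RPKM was divided by ACTB or GAPDH (log2 ratios of 0.10 to 0.11). HSPA5 had at least 4955 reads per library and HSP90B1 at least 7614, which is why their intervals are narrow. The opposite small shifts of these abundant chaperones over the parent fell near the middle of the genes, at percentiles 31.1 and 28.2 for HSPA5 and 60.9 and 56.3 for HSP90B1 (subclone1 and subclone2, among the 11370 genes with a mean of at least 1 RPKM).

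HERPUD1, an ER membrane protein that helps to bring misfolded proteins to the degradation complex, was at 18.1 RPKM in the parent (15.6 to 21.0), 16.4 in subclone1 (13.99 to 19.1) and 16.2 in subclone2 (13.8 to 18.8). All 3 intervals overlapped. Its ratios to the parent were 0.903 (0.727 to 1.12) and 0.892 (0.718 to 1.11), which do not exclude a decrease of about the size seen for HSPA5.

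The transcription factors XBP1 and ATF4 were higher in both subclones than in the parent, and more so in subclone2. XBP1, whose mRNA is spliced by IRE1 into the active form, was at 75.2 RPKM in the parent (69.3 to 81.3), 89.8 in subclone1 (83.5 to 96.4) and 122 in subclone2 (115 to 130). The 3 intervals did not overlap, and the folds over the parent were 1.19 (1.07 to 1.33) and 1.62 (1.47 to 1.80). Subclone2 also stood above subclone1, by 1.36-fold (1.24 to 1.496). ATF4, the factor that gives the second arm its name, showed the same order at 101 RPKM (94.7 to 108), 117 (110 to 124) and 145 (138 to 153). Its folds over the parent were 1.15 (1.06 to 1.26) and 1.44 (1.32 to 1.56), with 1.24 between the subclones (1.15 to 1.349). When RPKM was divided by ACTB, the subclone1 log2 ratios over the parent went from 0.26 to 0.12 for XBP1 and from 0.21 to 0.07 for ATF4, which is within counting error of no difference. Neither factor reached 2-fold, and over the parent the subclone2 ratios were at percentiles 89.9 for XBP1 and 85.1 for ATF4. Spliced and unspliced XBP1 cannot be told apart in these values.

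DDIT3 (CHOP), a C/EBP-family factor induced in prolonged stress, differed less in subclone2. It was at 44.5 RPKM in the parent (39.0 to 50.5), 49.2 in subclone1 (43.5 to 55.4) and 50.1 in subclone2 (44.4 to 56.3), and the intervals overlapped throughout. The folds were 1.105 (0.925 to 1.32) and 1.13 (0.944 to 1.34) over the parent, so neither no difference nor an increase up to these upper bounds is excluded. Exons of DDIT3 share 355 bases with MARS on the opposite strand (GENCODE 29), and the library kit does not mark strand, so some of these reads may belong to MARS.

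ATF3, a stress-induced factor of the ATF and CREB family and a common partner of AP-1 proteins, was the member that differed most, and it was high in subclone2. Its level was 1.75 RPKM in the parent (1.13 to 2.58, 25 reads), 2.31 in subclone1 (1.60 to 3.23, 34 reads) and 5.58 in subclone2 (4.45 to 6.91, 84 reads). The subclone2 interval stood clear of both others, which overlapped each other. Subclone2 was 3.19-fold above the parent (2.02 to 5.21) and 2.41-fold above subclone1 (1.60 to 3.70), whereas subclone1 over the parent was 1.32-fold (0.767 to 2.32). Among all genes these log2 ratios stood at percentiles 97.9 and 99.2 for the comparisons of subclone2. Even so, ATF3 remained the 7938th gene by level in subclone2, below every other member but CHAC1.

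The ATF4 targets TRIB3 and ASNS had their lowest level in subclone1. TRIB3, a pseudokinase that binds ATF4 and DDIT3 and dampens their activity, was at 79.2 RPKM in the parent (74.1 to 84.6), 44.8 in subclone1 (41.0 to 48.9) and 60.4 in subclone2 (56.1 to 65.1). No interval overlapped another, and the ratios to the parent were 0.566 (0.506 to 0.632) and 0.763 (0.690 to 0.843). ASNS, which makes asparagine from aspartate and glutamine, was at 35.5 RPKM (32.0 to 39.2), 18.6 (16.1 to 21.3) and 30.4 (27.2 to 33.8) in the same order. Its ratio to the parent was 0.523 in subclone1 (0.439 to 0.622) and 0.857 in subclone2 (0.737 to 0.995), so the subclone2 interval ended just under 1. Against subclone1, subclone2 was 1.64-fold higher for ASNS (1.37 to 1.96) and 1.349-fold higher for TRIB3 (1.20 to 1.51). In the order of all genes, the subclone1 log2 ratios of -0.93 for ASNS and -0.82 for TRIB3 were at percentiles 2.32 and 3.40. The ratios of subclone2 to subclone1 were at percentiles 97.0 for ASNS and 91.7 for TRIB3. Thus ATF4 mRNA and the mRNA of these targets were ordered differently: ATF4 was lowest in the parent, whereas TRIB3 and ASNS were highest there.

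CHAC1, an enzyme that degrades glutathione, had the fewest reads of the members. It was at 2.68 RPKM in the parent (1.61 to 4.19, 19 reads), 1.51 in subclone1 (0.755 to 2.71, 11 reads) and 1.88 in subclone2 (1.03 to 3.15, 14 reads). The point values had the order of ASNS and TRIB3, but all intervals overlapped and a ratio of 0.564 in subclone1 had an interval of 0.242 to 1.25. A difference of this size in CHAC1 was not detectable at this depth.

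**Figure D2:**
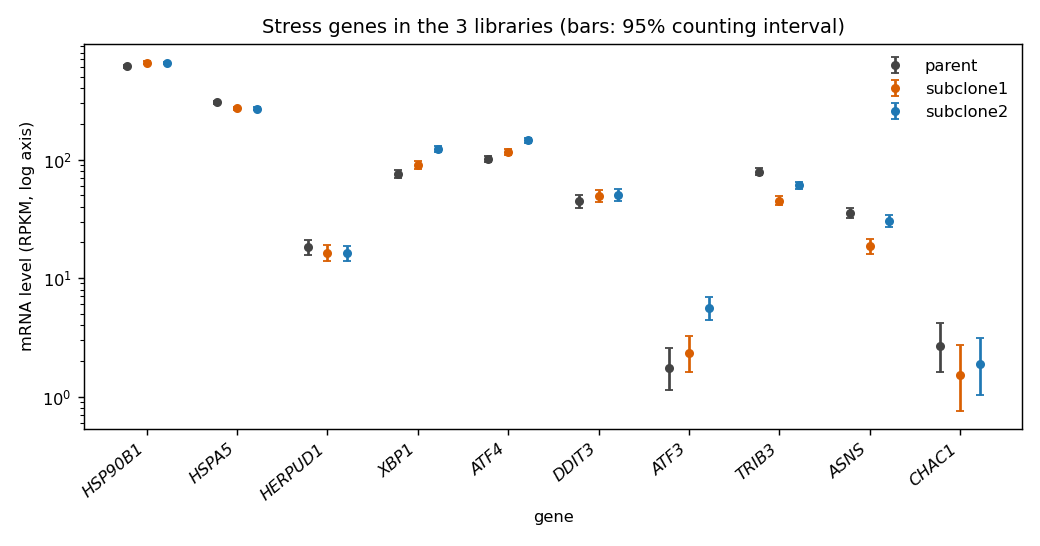
Levels of the 10 genes in the parent (grey), subclone1 (orange) and subclone2 (blue), in RPKM on a log axis, with 95% counting intervals as bars. XBP1 and ATF4 climb from parent to subclone2, ATF3 stands out in subclone2 at 5.58 RPKM, and TRIB3 and ASNS dip in subclone1.

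Per unit length, the order of the members was HSP90B1, HSPA5 and ATF4 in every library, and the order below them differed. In the parent TRIB3 and XBP1 came next with overlapping intervals, then DDIT3 and ASNS, also overlapping, then HERPUD1, and last CHAC1 and ATF3, again overlapping. In subclone1 XBP1 came next, DDIT3 and TRIB3 overlapped below it, ASNS and HERPUD1 overlapped next, and ATF3 and CHAC1 overlapped at the bottom. For subclone2 the order ran XBP1, then TRIB3 and DDIT3 with overlapping intervals, then ASNS, HERPUD1, ATF3 and CHAC1, each apart from the next. ASNS thus stood clearly above HERPUD1 in the parent and subclone2 and level with it in subclone1.

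Over the parent, members lay on both sides of 1 in each subclone, whereas between the subclones those past counting error were all higher in subclone2. For subclone1 over the parent, 0 of 10 were at least 2-fold higher, against 4.90% of the 11370 genes, and 0 of 10 at least 2-fold lower, against 1.82%, on log2 ratios with 0.1 RPKM added to each value. The counting interval lay above 1 for 3 (HSP90B1, XBP1 and ATF4; 19.9% of the 11146 genes with recovered reads) and below 1 for 3 (HSPA5, TRIB3 and ASNS; 19.0%). Their median log2 ratio was -0.02, which turned to 0.00 after scaling to upper quartiles, beside 0.00 over all genes.

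Subclone2 over the parent gave 1 of 10 at least 2-fold higher (ATF3; 5.33% of all genes) and 0 of 10 at least 2-fold lower (2.16%). The interval lay above 1 for 4 (HSP90B1, XBP1, ATF4 and ATF3; 22.8% of all genes) and below 1 for 3 (HSPA5, TRIB3 and ASNS; 17.8%), with a median log2 ratio of -0.03, or 0.03 when RPKM was divided by GAPDH, beside 0.04 over all genes. Subclone2 over subclone1 also gave 1 of 10 at least 2-fold higher (ATF3; 1.42%) and 0 of 10 at least 2-fold lower (1.39%). Here the interval lay above 1 for 5 (XBP1, ATF4, ATF3, TRIB3 and ASNS; 11.6%) and below 1 for none (0 of 10; 8.46%), and the median was 0.31 beside 0.03 over all genes. With 10 members a count of 0 or 1 past 2-fold is near these backgrounds, and the counts are given as descriptions.

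**Figure D3:**
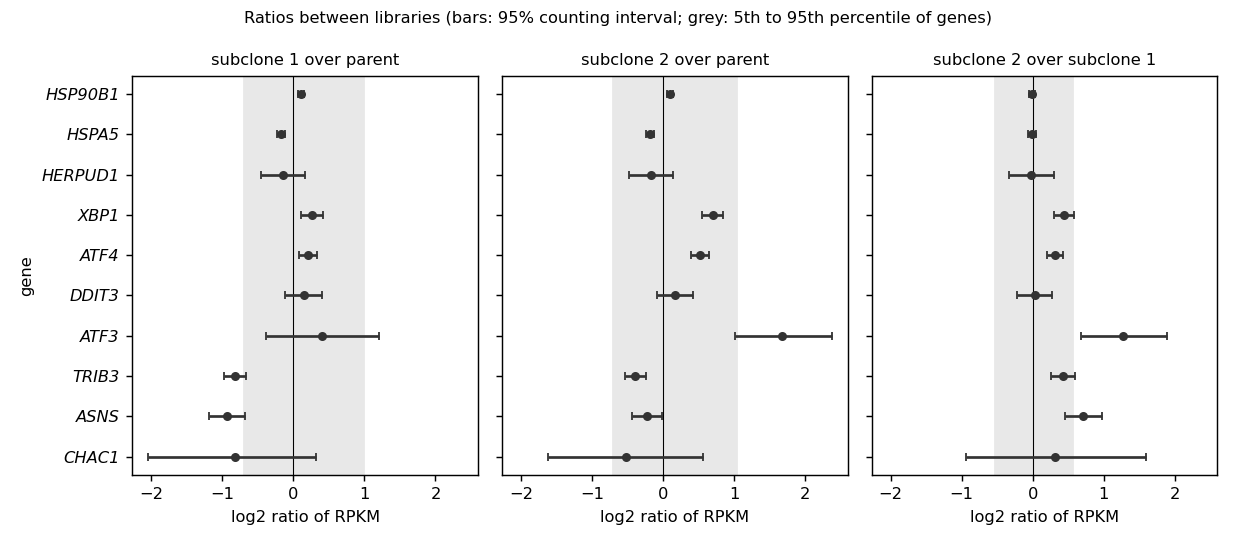
Ratios of the 10 genes between libraries (log2 ratio of RPKM on the x axis; points with 95% counting intervals), 1 panel per comparison, with the range from the 5th to the 95th percentile of all genes in grey. ASNS, TRIB3 and CHAC1 lie left of the grey band for subclone1 over the parent, and ATF3 lies right of it in both panels for subclone2. ASNS also lies right of it for subclone2 over subclone1.

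By its log2 ratios over the parent, ASNS was the member with the largest difference among those at 5 RPKM or more. The genes nearest to it among the 8210 at a mean of 5 RPKM or more were TRMT61B (distance 0.037), MAOA (0.050) and ETV4 (0.062), the distance being taken over both log2 ratios. TRMT61B was at 7.32, 3.86 and 6.39 RPKM in parent, subclone1 and subclone2, MAOA at 22.0, 11.1 and 19.1, and ETV4 at 20.6, 11.2 and 17.6. Over 3 libraries this likeness says only that the points lie close together.

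The other genes of each arm were read as lists, by the same 2-fold threshold and among genes at a mean of 1 RPKM or more. Of the 22 ER chaperones and folding enzymes, which include HSPA5 and HSP90B1, 1 was higher by 2-fold or more and 1 lower by 2-fold or more in each subclone over the parent, and none (0 and 0) differed by 2-fold between the subclones. The higher one was ERO1LB, an oxidase that recharges disulfide isomerases, at 0.439 RPKM in the parent (10 reads), 1.80 in subclone1 (42 reads) and 1.54 in subclone2 (37 reads). The lower one was TXNDC5, a disulfide isomerase, at 1.79 RPKM (26 reads), 0.739 (11 reads) and 0.786 (12 reads). Both are among the scarcest of the list and passed the limit on mean level only through the libraries where they were high, and with a pseudocount of 1 RPKM neither reached 2-fold (log2 ratios of 0.96 and 0.82 for ERO1LB and of -0.68 and -0.64 for TXNDC5). The counts are read beside 4.90% and 1.82% of all genes for subclone1 and 5.33% and 2.16% for subclone2. Between the subclones the shares were 1.42% and 1.39%. The list median was 0.07 and 0.08 over the parent and 0.04 between the subclones, and the first of these turned to -0.06 when RPKM was divided by ACTB. ERSE was present in 7 of the 21 genes of this list with a window, beside 0.173% of 9235 genes with a window and a mean of at least 1 RPKM. ERSE was searched because it is known to act on such chaperones, so a high share was built in and is given as a description.

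The degradation list of 20 genes, 19 of them at 1 RPKM or more and HERPUD1 among them, held 0 genes past 2-fold in any comparison. Its medians were -0.03, 0.06 and -0.02 for subclone1 over the parent, subclone2 over the parent and subclone2 over subclone1, and the last turned to 0.10 and 0.09 when RPKM was divided by ACTB and GAPDH. The 17 sensors, eIF2alpha kinases, phosphatase subunits and transcription factors, with XBP1, ATF4 and DDIT3, likewise held none past 2-fold (0 in each). Over all genes, 4.90% were 2-fold higher and 1.82% lower in subclone1 over the parent. The shares were 5.33% and 2.16% for subclone2 over the parent and 1.42% and 1.39% for subclone2 over subclone1. For the list of 17 the median was 0.14, 0.28 and 0.07. Over the parent, the subclone2 interval lay above 1 for 9 (22.8% of all genes) and below 1 for 2 (17.8%). Without the 3 members the medians were 0.13, 0.28 and 0.06. The 3 sensors are given although none passed 2-fold. PERK (EIF2AK3) was at 6.73, 8.88 and 8.53 RPKM, with ratios to the parent of 1.32 (1.06 to 1.65) and 1.27 (1.01 to 1.59). IRE1 (ERN1) was at 1.06, 1.41 and 1.53 RPKM, with ratios of 1.33 (0.710 to 2.55) and 1.45 (0.786 to 2.74). ATF6 was at 19.2, 19.1 and 20.0 RPKM, with ratios of 0.997 (0.822 to 1.21) and 1.04 (0.863 to 1.26).

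The amino acid genes, with ASNS among them, were more often lower than higher in both subclones over the parent past counting error. Of the 18 synthesis and transport genes 16 were at 1 RPKM or more. The interval of subclone1 over the parent lay below 1 for 8 of them (19.0% of all genes) and above 1 for 3 (19.9%). For subclone2 over the parent it lay below 1 for 6 (17.8%) and above 1 for 3 (22.8%). For subclone2 over subclone1 it lay above 1 for 7 (11.6%) and below 1 for 1 (8.46%). Only PHGDH passed 2-fold (1 of 16 in each comparison). It was lower in subclone1 and subclone2 over the parent (1.82% and 2.16% of all genes) and higher in subclone2 over subclone1 (1.42%). In the other direction it was 0 of 16 in each (4.90%, 5.33% and 1.39%). PHGDH makes the first step of serine synthesis from glycolysis, and its level was 14.8 RPKM in the parent (134 reads), 3.22 in subclone1 (30 reads) and 6.60 in subclone2 (63 reads). Its ratios to the parent were 0.218 (0.142 to 0.326) and 0.447 (0.326 to 0.607), and subclone2 was 2.05-fold above subclone1 (1.31 to 3.28), a log2 ratio of 1.01 that fell to 0.85 with a pseudocount of 1 RPKM. PSAT1, the next enzyme of that pathway and named here after its values were seen, was at 75.2, 38.4 and 57.6 RPKM. The list did not move as a whole, since PSPH, the last step of the same pathway, was at 23.6, 28.8 and 31.0 RPKM, and CBS, an enzyme of cysteine synthesis, was at 8.71, 17.2 and 16.0, both also named after their values were seen. The medians were -0.16, -0.05 and 0.17, and the second turned to 0.02 when RPKM was divided by GAPDH. MTHFD2 and PYCR1, which dividing cells commonly use, had 1 read in 1 library each and no value above 0 in the others, so they are not read as levels.

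The aminoacyl-tRNA synthetases, which charge tRNA for translation, and the tRNA exporter XPOT made a list of 13 genes. Their differences were small, and mostly like-signed only in the comparisons that involve subclone1. In subclone1 11 of 13 were below the parent, with a median of -0.18 beside 0.00 over all genes. The 11 include GARS, which was level with the parent at a ratio of 0.9995 (0.934 to 1.07). The interval lay below 1 for 6 (19.0% of all genes) and above 1 for 1, CARS (19.9%). Against subclone1, subclone2 was higher for 12 of 13, with a median of 0.21 beside 0.03 over all genes. There the interval lay above 1 for 9 (11.6% of all genes) and below 1 for 0 (8.46%). Over the parent subclone2 was near level, with 7 of 13 higher and a median of 0.01 beside 0.04 over all genes. That median turned below 0 after scaling to equal sums, upper quartiles or the median gene. None passed 2-fold (0 of 13 in each comparison), beside 4.90% higher and 1.82% lower of all genes for subclone1 over the parent. For subclone2 these shares were 5.33% and 2.16% over the parent and 1.42% and 1.39% over subclone1. The widest ratio, CARS in subclone2 over the parent, was 1.53 (1.32 to 1.78). Dividing by ACTB took the subclone1 median to -0.31, while the median of all genes went to -0.13. CARE was present in 7 of the 11 genes of this list with a window and in 5 of 13 of the amino acid genes, beside 2.75% of genes at a mean of 1 RPKM or more. Both lists were drawn up as ATF4 targets, so high shares were built in and are given as descriptions. The runs for the synthetases of the aminoacyl groups glycine, methionine and isoleucine are shown for comparison with that of ASNS.
GARS, chr7:30594834-30594863, minus strand: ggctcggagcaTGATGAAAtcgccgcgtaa
MARS, chr12:57488053-57488082, minus strand: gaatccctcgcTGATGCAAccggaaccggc
IARS, chr9:92293692-92293721, plus strand: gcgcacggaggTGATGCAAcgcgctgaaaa

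Across all 254 genes with CARE at a mean of 1 RPKM or more, 14 were higher by 2-fold or more and 6 lower by that much in subclone1 over the parent (all genes, 4.90% and 1.82%), with a median log2 ratio of 0.05. Subclone2 over the parent gave 16 and 4 (5.33% and 2.16%) with a median of 0.06, and subclone2 over subclone1 gave 8 and 3 (1.42% and 1.39%), also with a median of 0.06. The 16 genes with ERSE gave 2 and 0, 1 and 0, and 0 and 0 in the same comparisons.

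The 19 stress regulators and secreted factors downstream of ATF4 held the members TRIB3, CHAC1, ATF3 and DDIT3, and 17 were at 1 RPKM or more. Over the parent, 2 were at least 2-fold higher in subclone1 (DDIT4 and NUPR1, 4.90% of all genes) and 3 in subclone2 (ATF3, BBC3 and DDIT4, 5.33%). None was at least 2-fold lower (0 in each, beside 1.82% and 2.16%). NUPR1 was at the threshold, with a log2 ratio of 1.01 that became 0.997 with equal sums, 0.95 with GAPDH, 0.94 with a pseudocount of 1 RPKM and 0.87 with ACTB. DDIT4 (REDD1), an inhibitor of mTORC1 that also responds to hypoxia and glucocorticoids, was at 19.5 RPKM in the parent, 48.8 in subclone1 and 42.0 in subclone2. BBC3 (PUMA), a pro-apoptotic BCL2-family protein, was at 1.93, 3.65 and 5.51 RPKM, and NUPR1, a stress-induced chromatin protein, at 9.74, 19.7 and 13.3 RPKM. GDF15, a secreted stress cytokine, was at 7.85, 6.22 and 14.7 RPKM, and it and ATF3 were the 2 of this list at least 2-fold higher in subclone2 than in subclone1 (1.42% of all genes). The subclone2 over subclone1 ratio of GDF15 was 2.37 (1.58 to 3.62), close to that of ATF3. The list median in that comparison was 0.17 with the members and -0.04 without them. FGF21 had no value above 0 in any library.

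ATF3 is also an immediate early gene, so the other genes of that class were read beside it. Of 14, 13 were at 1 RPKM or more, and KLF2, a zinc finger factor, was the only one past 2-fold, at 1.89, 8.65 and 5.37 RPKM (log2 ratios of 2.14 and 1.46 over the parent). That is 1 of 13 higher in each subclone, beside 4.90% and 5.33% of all genes. Over the parent 0 of 13 were 2-fold lower, beside 1.82% and 2.16%. KLF2 had 14, 66 and 42 reads, and its folds over the parent were 4.59 (2.55 to 8.85) and 2.85 (1.53 to 5.65). None was 2-fold higher in subclone2 than in subclone1 (0 of 13, beside 1.42% of all genes). In that comparison the median was -0.09 and turned to 0.04 and 0.03 when RPKM was divided by ACTB and GAPDH. FOS was at 7.74, 12.9 and 13.1 RPKM and EGR1 at 21.8, 15.2 and 14.04, with ratios of subclone2 to subclone1 of 1.02 (0.796 to 1.31) and 0.922 (0.759 to 1.12). KLF4, at 11.6, 11.6 and 17.1 RPKM, was the only gene of the list whose interval lay above 1 in subclone2 over subclone1. Its fold was 1.47 (1.197 to 1.81), beside 2.41 for ATF3. The interval lay below 1 for 2 genes, KLF2 at 0.621 (0.411 to 0.928) and JUNB at 0.846 (0.740 to 0.966). Over all genes the shares were 11.6% above 1 and 8.46% below 1. FOS, EGR1, KLF4 and JUNB were named after their values were seen.

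**Figure D4:**
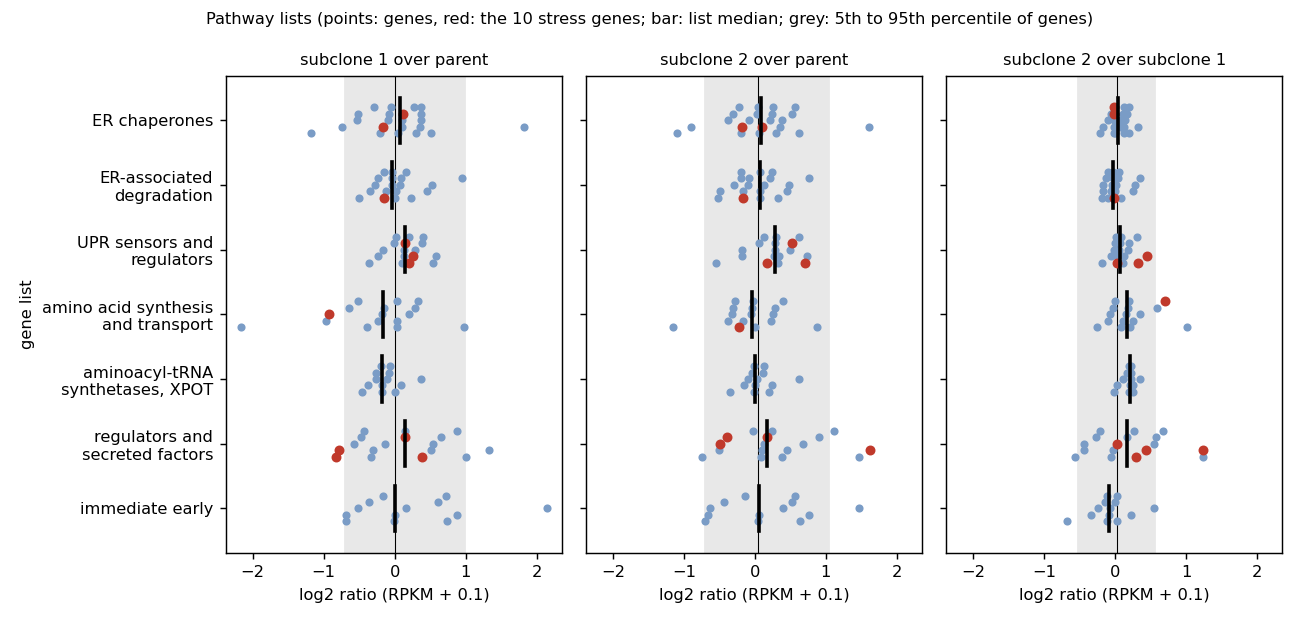
Log2 ratios (RPKM + 0.1) of the genes of 7 lists at a mean of 1 RPKM or more, 1 panel per comparison, with the 10 stress genes in red, other genes in blue, list medians as bars and the 5th to 95th percentile of all genes in grey. The synthetase list lies mostly left of 0 for subclone1 over the parent (median -0.18) and right of 0 for subclone2 over subclone1 (median 0.21), whereas the chaperone and degradation lists straddle 0, and dividing by ACTB turned the sign of a median in each.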

How the data were processed

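Each library's table lists genes by Entrez number and symbol with RPKM that the authors deposited, and only values above 0 are listed. The build was hg19 per the submitters' processing notes, and the aligner, counter and annotation were not given in the sources used here. A gene missing from a table was set to 0. Ratios were log2 of (RPKM + 0.1) between libraries, which understates differences of low genes, and folds with intervals used RPKM and reads. A gene's reads were recovered from the steps of its RPKM (Python 3.11.15, numpy 2.4.6, scipy 1.17.1) and were found for 98.0% of the 11370 genes at a mean of at least 1 RPKM. The upper limit on gene length in this step was widened after values were seen, which was needed for ATF3. The steps were also run on data simulated from the recovered lengths, reads and totals of genes already resolved. A wrong total or length in the deposited values could not show there. Exon overlaps came from GENCODE 29, and promoter windows from RefSeq. In the lists, genes past 2-fold were named, at most 5 per list and comparison. The members and lists were chosen with earlier results of these data known. HSPA5, HSP90B1, XBP1, ATF4 and ASNS have near-identical pseudogenes, and how shared reads were counted was not given in the sources used here. ASNS shares 1985 exonic bases with AC079781.5. Protein sequences were not analysed here.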

Additional observations from a re-analysis of the deposited data

How the results depend on the processing

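No paired analysis was possible because the parent, subclone1 and subclone2 have 1 library each. With single libraries none could be left out. The alternatives were a pseudocount of 0.01 or 1 RPKM, rescaling to equal sums, upper quartiles, ACTB, GAPDH or the median gene, no filter on level or a mean of at least 5 RPKM, and a 1.5-fold threshold. Of 210 member ratios under the 7 pseudocounts and scalings, 198 stayed within their counting interval, 11 moved beyond it, and 1 whose interval left out 1 changed sign, HSP90B1 in subclone1 over the parent (log2 ratio of -0.022 with ACTB). In subclone2 over subclone1, HSPA5, HSP90B1 and HERPUD1 went from -0.01, -0.01 and -0.02 to 0.11 with ACTB and 0.10 to 0.11 with GAPDH, and DDIT3 from 0.03 to -0.01 after centring on the median gene and to -0.003 with upper quartiles. Medians of the members stayed within their range in 27 of 27. Members at least 2-fold lower in subclone1 over the parent numbered 0, 1 with ACTB and 3 at 1.5-fold. Members at least 2-fold higher numbered 1 in each comparison of subclone2, 0 at a mean of at least 5 RPKM, which removes ATF3, and 2 at 1.5-fold, and against subclone1 also 0 with a pseudocount of 1 RPKM. Over all genes, 557 were higher and 207 lower in subclone1 over the parent, 606 and 246 in subclone2 over the parent, and 161 and 158 in subclone2 over subclone1. In the same order these were 347 and 117, 380 and 150, 80 and 77 with a pseudocount of 1 RPKM, 1523 and 884, 1553 and 941, 842 and 902 with no filter, 233 and 71, 253 and 93, 43 and 46 at a mean of at least 5 RPKM, and 1317 and 848, 1444 and 830, 540 and 467 at 1.5-fold. With ACTB, 449 were higher and 328 lower in subclone1 over the parent, which took the share of higher genes from 72.9% to 57.8%. In subclone2 over subclone1 that share went from 50.5% to 64.0% with ACTB and 62.6% with GAPDH. The median of all genes shifted by -0.13 (ACTB, subclone1 over the parent) and by 0.12 (ACTB or GAPDH, subclone2 over subclone1). The cause of these shifts was not tested. Depth limits CHAC1 and ATF3 most, with 11 to 84 reads.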
